A study of Homo sapiens with 14 samples.

Results

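The miR-181 family was followed in the small RNA of extracellular vesicles (EVs), membrane-bound particles shed into the medium, from cultures of human epicardial cells, which form the outer layer of the heart. Its 4 members are the 5p arms miR-181a-5p, miR-181b-5p, miR-181c-5p and miR-181d-5p. They were taken by name from the 2632 miRNAs of the count table. The rule uses no measured value, but the family was chosen with earlier results of these data known. Of the 4 members, miR-181a-5p and miR-181b-5p had counts, 638 together, or 1.35% of all 47091 counts. miR-181c-5p and miR-181d-5p had none in any library.

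All groups were grown from pro-epicardial cells made from hES-2, a widely used line of human embryonic stem cells, so the cultures share 1 genotype. NT cells, labelled untreated pro-epicardial, received no additive (3 libraries: replicates 1, 3 and 4). SB cells, labelled mature epicardial, were kept for 8 days with 6 µM SB-431542, an inhibitor of the TGF-beta type I receptor kinase (4 libraries). TGFb cells were given TGF-beta1 at 5 ng/ml for 4 days and then spent 4 days without it (4 libraries). Basic FGF, at 10 ng/ml for 8 days, was added to the FGF cells (3 libraries: replicates 2, 3 and 4). In every group the medium was passed through a 100 kDa filter from day 4 and the conditioned medium of each 48 h period was taken on days 6 and 8. The contrast of SB with NT therefore joins the named maturation stage with the inhibitor, and these cannot be told apart. The labels do not say whether replicates came from separate cultures, so the p-values measure the spread between these libraries, which may be technical.

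A miRNA is cut from a hairpin precursor, and 1 strand of the resulting duplex, the 5p or the 3p arm, guides an Argonaute protein to messenger RNAs that pair with its seed, bases 2 to 8. The miR-181 family is best known for setting the sensitivity of T cell receptor signalling during thymic development. miR-181a and miR-181b have also been reported to rise after TGF-beta in several epithelial and tumour cell types, and miR-181c has been found in the mitochondria of heart cells. Epicardial cells undergo an epithelial-to-mesenchymal transition that TGF-beta drives, which makes the family of interest here.

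The mature sequences show why the members are counted as 1 family and how little separates them. They are given 5′ to 3′ from RefSeq (GRCh38.p14), with the seed in capitals.
miR-181a-5p: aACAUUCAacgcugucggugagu
miR-181b-5p: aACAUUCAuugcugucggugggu
miR-181c-5p: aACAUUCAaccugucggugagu
miR-181d-5p: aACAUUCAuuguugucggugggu
miR-4262: gACAUUCAgacuaccug
All 4 members matched an entry in the RefSeq table. Of its 2370 mature names, 5 carry the seed ACAUUCA, the 4 members and miR-4262, which is otherwise unlike them and had no counts. With positions counted from 1 at the 5′ end, miR-181a-5p and miR-181b-5p differ by A9U, C10U and A21G. miR-181b-5p and miR-181d-5p differ by C12U alone, and miR-181c-5p is miR-181a-5p with 1 base missing and no substitution. How the authors assigned reads with a mismatch is not given in the sources used here, so the division of counts between such close members is uncertain.

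The family comes from 6 hairpin genes in 3 pairs (GRCh38). MIR181A1 (chr1:198859044-198859153, minus strand) and MIR181B1 (chr1:198858873-198858982, minus strand) lie 61 bases apart in an intron of the long non-coding RNA gene MIR181A1HG. MIR181A2 (chr9:124692442-124692551, plus strand) and MIR181B2 (chr9:124693710-124693798, plus strand) lie 1158 bases apart in an intron of MIR181A2HG, antisense to an intron of NR6A1. MIR181C (chr19:13874699-13874808, plus strand) and MIR181D (chr19:13874875-13875011, plus strand) lie 66 bases apart in an intron of NANOS3 in GENCODE v29. The values of miR-181a-5p and miR-181b-5p are each sums over 2 genes, since their mature 5p arms are the same from chromosomes 1 and 9.

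The libraries were shallow, with 115 to 14862 counts, and 4 held under 500 (SB replicates 1 and 2, TGFb replicate 2 and FGF replicate 2). Of the 2632 miRNAs, 2185 (83.0%) had no count anywhere, and 18 were counted in every library. Levels are given as shares of a library's miRNA counts, and intervals are 95% Wilson intervals. Where a miRNA had no count, the limit given is the share that 3 counts would make. Both limits cover counting error only. The share of a miRNA can move because it or the other miRNAs in the library changed, and less miRNA per vesicle cannot be told apart from fewer vesicles that carry it. No miRNA list fixes epicardial identity. Of 8 pluripotent stem cell miRNAs 6 had no count, and the summed share of the 8 was at most 0.0990% in any library. Other lists were mixed. Of the neural miRNAs miR-124-3p was at 0, while miR-9-5p had 94 counts (up to 3.48% of a library) and miR-128-3p had 92. Of the striated muscle miRNAs miR-208b-3p and miR-499a-5p were at 0, while miR-1-3p had 22 counts (up to 0.870%) and miR-133a-3p had 12. Of the red cell and serum miRNAs miR-451a and miR-144-3p were at 0 and miR-486-5p had 6 counts. The 4 lymphoid and myeloid miRNAs, markers of the cells in which the family is best known, held 21 counts in all (none for miR-150-5p), with summed shares of 0% to 0.870% per library.

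miR-181a-5p was the leading member. It ranked 23rd of all miRNAs by mean share, at 0.875% ± 0.701 (SD, n = 14), beside miR-320d (0.879%) above it and miR-1307-3p (0.869%) below it, neighbours that did not differ from it beyond their spread. Summed over all libraries it had 454 counts (0.964%, interval 0.880% to 1.06%), and 11 of 14 libraries held at least 1. miR-181b-5p ranked 45th, at 0.430% ± 0.243 (SD, n = 14), with 184 counts in 13 of 14 libraries. These are counts of 2 miRNAs with no correction for how well each was captured.

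In NT, miR-181a-5p had 126 counts (0.848% of the library) in replicate 1, 91 (0.962%) in replicate 3 and 25 (2.48%, interval 1.68% to 3.63%) in replicate 4. In SB it had no count in replicates 1 and 2, 20 counts (0.523%, interval 0.339% to 0.806%) in replicate 3 and 12 (0.933%, 0.535% to 1.62%) in replicate 4. In TGFb it had 11 counts (0.776%), 1 (0.433%, interval 0.0765% to 2.41%), 78 (1.04%) and 42 (1.52%) in replicates 1 to 4. NT replicate 4 was the highest of all 14 libraries, and the lowest values, all at 0, were 2 SB libraries and 1 FGF library.

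In FGF, miR-181a-5p had no count in replicate 2, 33 (1.02%) in replicate 3 and 15 (1.73%) in replicate 4. NT had the highest mean share, 1.43% ± 0.909 (SD, n = 3), followed by TGFb with 0.942% ± 0.457 (n = 4), FGF with 0.915% ± 0.869 (n = 3) and SB with 0.364% ± 0.452 (n = 4). The ranges of all 4 groups overlapped, and no neighbours in that order differed beyond their spread. SB, the last, passed no test against another group, as given below. Single libraries carried much of these means. NT fell to 0.905% without replicate 4, SB to 0.174% without its replicate 4 and FGF to 0.509% without its replicate 4. The order also changed when counts were pooled by group, which gives deep libraries more weight. FGF then held 1.14%, TGFb 1.11% and NT 0.955%, with overlapping Wilson intervals, and SB stayed last. The first place of NT thus depends on weighting its libraries equally.

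The 3 libraries at 0 were among the shallowest, and their zeros bound the level loosely. They allow up to 0.870% in SB replicate 1, 1.68% in SB replicate 2 and 2.61% in FGF replicate 2. At 0.990%, the median share of the 10 libraries with at least 500 counts, these libraries would hold 3.42, 1.77 and 1.14 counts. Over those 10 libraries alone the mean shares were 1.43% in NT (n = 3), 1.37% in FGF (n = 2), 1.11% in TGFb (n = 3) and 0.728% in SB (n = 2). SB stayed last of the 4, and FGF stood above TGFb.

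**Figure D1:**
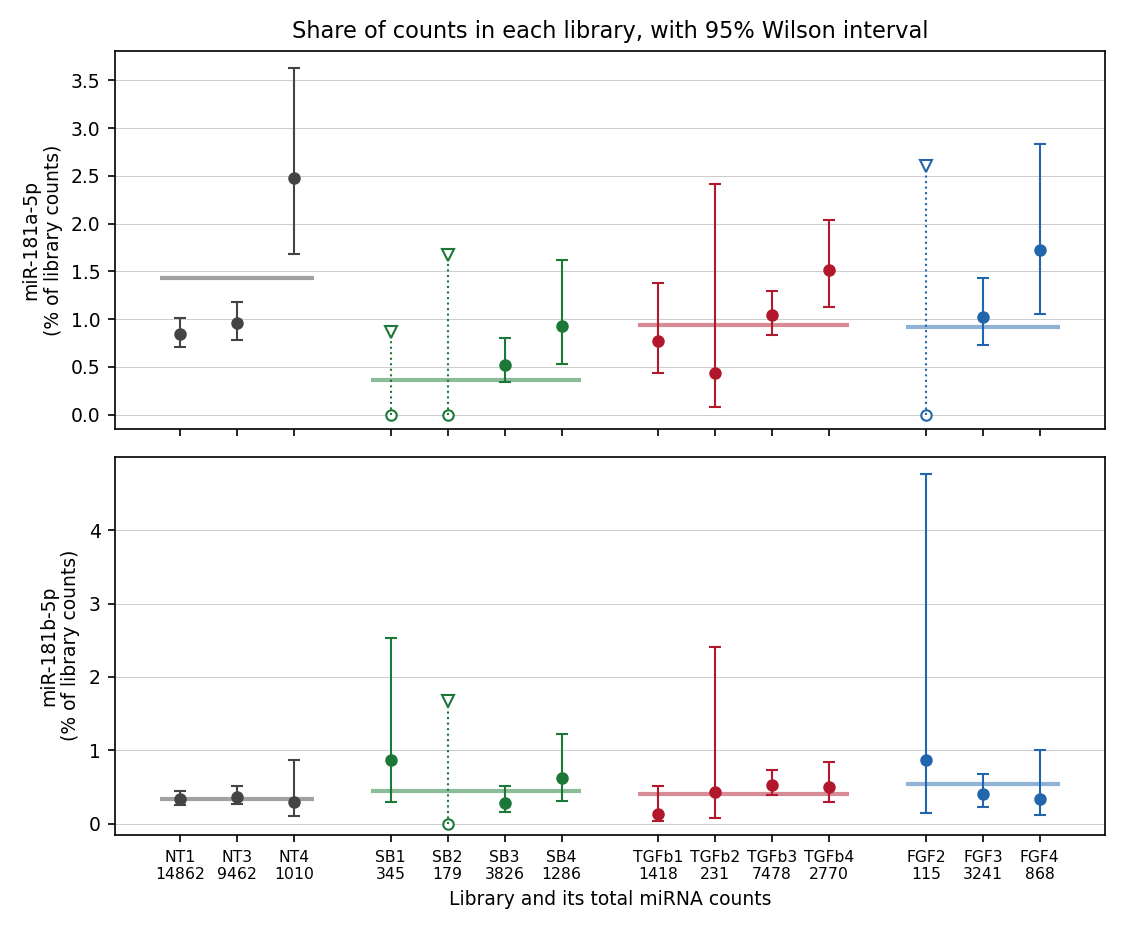
Share of miRNA counts (y axis, %) of miR-181a-5p (upper panel) and miR-181b-5p (lower panel) in each library (x axis, with total counts), with 95% Wilson intervals as bars and group means as horizontal lines. Open circles are counts of 0 and open triangles the limit that 3 counts give. The 2 SB libraries at 0 for miR-181a-5p are also shallow, and the SB mean of 0.364% is the lowest of the 4 group means in the upper panel only.

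The first question was whether the family in EVs differed between cells held under TGF-beta receptor inhibition and untreated cells. miR-181a-5p was lower in SB by a log2 fold change of −1.60 (SE 0.85), and this did not pass the test (edgeR quasi-likelihood, adjusted p = 0.441, unadjusted p = 0.0727). It was the 1 member among the 47 miRNAs that passed the count filter, and it ranked 7th of them by p. Of the 47, 1 (2.13%) was called in this comparison, miR-125a-5p, and 6 had an unadjusted p under 0.05. DESeq2 called 3 of the 47, and miR-181a-5p was not among them. So 0 of 1 tested members was called against a background of 2.13%, and the median log2 fold change of the 47 was −0.04. The difference was −1.11 without NT replicate 4 and −2.39 without SB replicate 4 (adjusted p of 0.395 and 0.254). Some markers of other cell types were also uneven between these groups. The summed share of the endothelial miR-126-3p and miR-126-5p was 0.0269% to 0.0990% in NT and 0% to 3.91% in SB, and that of the 3 neural miRNAs was 0.209% to 0.495% in NT and 0.418% to 2.90% in SB. The neural difference lay in miR-9-5p alone (mean shares of 0.196% in NT and 1.49% in SB). miR-128-3p went the other way (0.190% in NT and 0.0327% in SB), and miR-124-3p had no count. The liver miRNA miR-122-5p took 0% to 0.396% in NT and 0% to 3.91% in SB. The highest SB shares of miR-126-3p and miR-122-5p were in replicate 2 and that of miR-9-5p in replicate 1, both libraries under 500 counts. None of these 3 passed for SB against NT (edgeR adjusted p of 0.245 for miR-126-3p, 0.276 for miR-9-5p and 0.441 for miR-122-5p). The part of these markers in the difference of miR-181a-5p was not tested.

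The authors' adjusted table gave the same direction. There, the mean share of miR-181a-5p was 1.03% ± 0.185 in NT (SD, n = 3) and 0.203% ± 0.237 in SB (n = 4), and the highest SB library (0.453%) was under the lowest NT library (0.837%). This held for 2 of the 47 miRNAs (4.26%) in that direction, and for 2 in the other. The zeros of SB replicates 1 and 2 allow up to 0.870% and 1.68% of their raw counts, above that NT library, so the lack of overlap is not resolved at this depth. On those values limma gave a log2 fold change of −3.16 with an adjusted p of 0.380. The authors' method of adjustment is not given in the sources used here.

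The second question was whether TGF-beta1 raised the family over its untreated or inhibited state. Against NT, miR-181a-5p differed in TGFb by −0.27 on the log2 scale (SE 0.81, edgeR adjusted p = 0.955), well within the spread. The sign of this small difference turned without NT replicate 4 (0.21), the library with the highest share. None of the 47 miRNAs was called by edgeR in TGFb against NT (0%) or by DESeq2, and 2 had an unadjusted edgeR p under 0.05.

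Between TGF-beta1 and receptor inhibition, TGFb against SB, miR-181a-5p was higher in TGFb by 1.32 on the log2 scale (SE 0.82). This did not pass the test either (edgeR adjusted p = 0.783, unadjusted p = 0.117, 7th of 47), and again no miRNA was called by edgeR (0%) or DESeq2, with 4 under an unadjusted edgeR p of 0.05. Without SB replicate 4 the difference was 1.99 (adjusted p = 0.547). The comparisons share their libraries: the same 4 SB libraries enter this value and the one against NT.

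In FGF, miR-181a-5p differed from NT by −0.63 (SE 0.90, edgeR adjusted p = 0.761), from SB by 0.96 (SE 0.88, adjusted p = 0.898) and, as TGFb against FGF, by 0.36 (SE 0.85, adjusted p = 0.970), all log2 fold changes. The comparison of TGFb with FGF turned to −0.22 with library sizes alone as the scaling. Without NT replicate 4 the difference of FGF from NT was −0.17, without FGF replicate 4 it was −1.38, and in the adjusted table −2.06. The difference from SB was 0.58 without FGF replicate 4 and 1.61 without SB replicate 4, and none of these passed. Markers of mural and mesenchymal cells, which epicardial cells can give rise to, were uneven beside these values. All 4 (miR-143-3p, miR-145-5p, miR-199a-3p and miR-214-3p) had counts in some library. Their summed share was 2.07% to 6.09% in FGF, 0% to 0.891% in NT, 0.131% to 1.68% in SB and 0.0705% to 1.30% in TGFb. The FGF sum was mostly miR-143-3p and miR-199a-3p (mean shares of 2.25% ± 0.384 and 1.51% ± 1.76, SD, n = 3). miR-199a-3p ran from 0.115%, which was 1 count in replicate 4, to 3.48% in replicate 2, a library of 115 counts. The highest sum, 6.09%, was in that shallow library too. miR-145-5p had 4 counts over all libraries, and miR-214-3p had none in FGF. The part of these markers in the FGF values was not tested.

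Called miRNAs numbered 1 of 47 in FGF against NT (2.13%, miR-483-3p) and 0 of 47 in each of the other 2, where 3 and 7 had an unadjusted p under 0.05 and DESeq2 called 1 each. The test across the 4 groups gave an adjusted p of 0.638 for miR-181a-5p, and it called 0 of 47 (DESeq2 called 2), with 5 under an unadjusted p of 0.05.

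**Figure D2:**
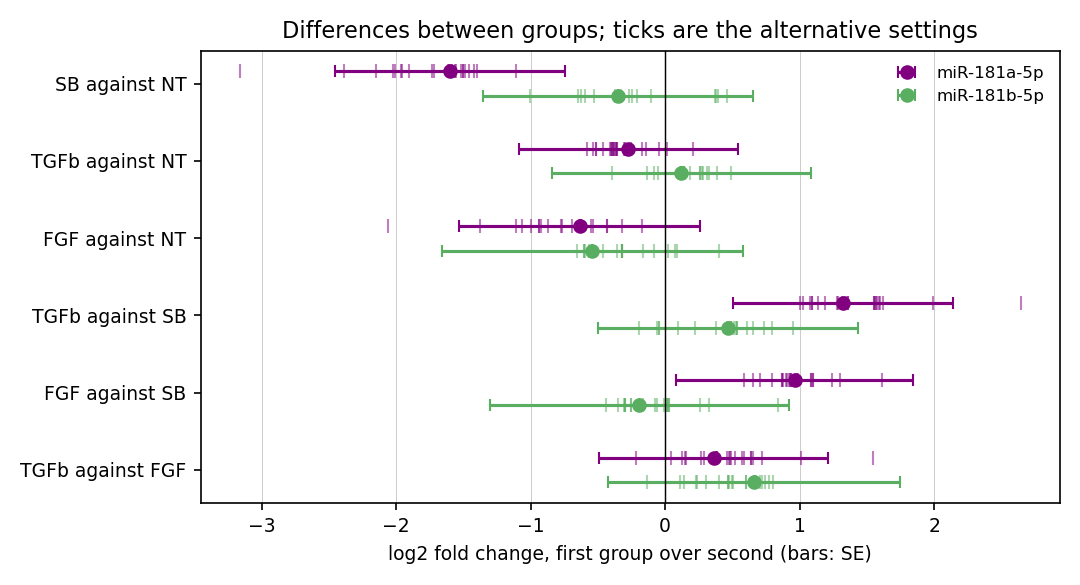
Log2 fold changes (x axis, first group over second) of miR-181a-5p and miR-181b-5p in the 6 comparisons (y axis); points are the edgeR values, bars 1 SE to each side, and short ticks the values under alternative settings. miR-181b-5p comes from a fit with no expression filter. The ticks of miR-181a-5p stay on 1 side of 0 in SB against NT (−3.16 to −1.11) and in TGFb against SB (1.00 to 2.64), while those of miR-181b-5p cross 0 in all 6 comparisons.

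miR-181b-5p did not pass the count filter. Its shares were 0.336% (50 counts), 0.370% (35) and 0.297% (3) in NT replicates 1, 3 and 4. In SB they were 0.870% (3 counts), 0% with a limit of 1.68%, 0.288% (11) and 0.622% (8) in replicates 1 to 4. The 3 NT libraries were close together, and the SB libraries lay on both sides of them.

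In TGFb, miR-181b-5p took 0.141% (2 counts), 0.433% (1), 0.535% (40) and 0.505% (14) in replicates 1 to 4. In FGF it took 0.870% (1 count), 0.401% (13) and 0.346% (3) in replicates 2 to 4. FGF had the highest mean, 0.539% ± 0.288 (SD, n = 3), followed by SB with 0.445% ± 0.381 (n = 4), TGFb with 0.404% ± 0.180 (n = 4) and NT with 0.334% ± 0.0365 (n = 3). FGF stood first through replicate 2, where 1 count made 0.870%. Over the libraries of at least 500 counts the means were 0.455% in SB (n = 2), 0.394% in TGFb (n = 3), 0.373% in FGF (n = 2) and 0.334% in NT (n = 3). This order differs from that of the mean shares of miR-181a-5p, with NT last in place of first. However, no 2 neighbours in it differed beyond their spread and all ranges overlapped.

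Fitted with no filter, over 447 miRNAs, miR-181b-5p gave −0.35 (SE 1.01) for SB against NT, 0.12 (SE 0.96) for TGFb against NT and 0.47 (SE 0.97) for TGFb against SB on the log2 scale, with edgeR adjusted p of 0.969, 1 and 1. For SB against NT the fit and the mean share point in different directions, and in edgeR with RLE scaling factors in place of TMM the log2 fold change was 0.38. In this fit 1 of 447 miRNAs was called in FGF against NT and 1 across the 4 groups (0.224% each), neither a member. None was called in the other comparisons, where 17 to 31 had an unadjusted p under 0.05. FGF against NT gave −0.54 (SE 1.12, adjusted p = 0.873). FGF against SB gave −0.19 (SE 1.11, adjusted p = 1) and TGFb against FGF 0.66 (SE 1.09, adjusted p = 1). Whether the responses of miR-181a-5p and miR-181b-5p differ from each other was not tested.

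miR-181c-5p and miR-181d-5p had 0 of 47091 counts. This allows a share of up to 0.00637% for each, so miR-181a-5p was at least 151-fold and miR-181b-5p at least 61.3-fold above that limit over all libraries. By group the limit was 0.0118% in NT, 0.0252% in TGFb, 0.0532% in SB and 0.0710% in FGF. The pair from chromosome 19 was thus not detectable at this depth in any group, apart from 2 counts of the opposite arm miR-181c-3p in NT replicate 3, and no comparison could be made for it.

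Within the family, miR-181a-5p had the higher count in the libraries where the pair could be compared. At least 10 family counts were present in 10 libraries, and in all 10 miR-181a-5p exceeded miR-181b-5p, from 60.0% of the family counts (SB replicate 4, 12 of 20, interval 38.7% to 78.1%) to 89.3% (NT replicate 4, 25 of 28, 72.8% to 96.3%), with a median of 72.0%. In 8 of the 10 the interval lay above equal parts, and in SB replicates 3 and 4 it did not. Pooled by group, its part was 73.3% in NT (242 of 330, interval 68.3% to 77.8%), 69.8% in TGFb (132 of 189, 63.0% to 75.9%), 73.8% in FGF (48 of 65, 62.0% to 83.0%) and 59.3% in SB (32 of 54, 46.0% to 71.3%). SB had the lowest part, and its interval overlapped those of the other groups. In the authors' adjusted table the SB part was 47.5% (19 against 21 for miR-181b-5p, interval 32.9% to 62.5%), so there neither of the pair was clearly the larger in SB.

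**Figure D3:**
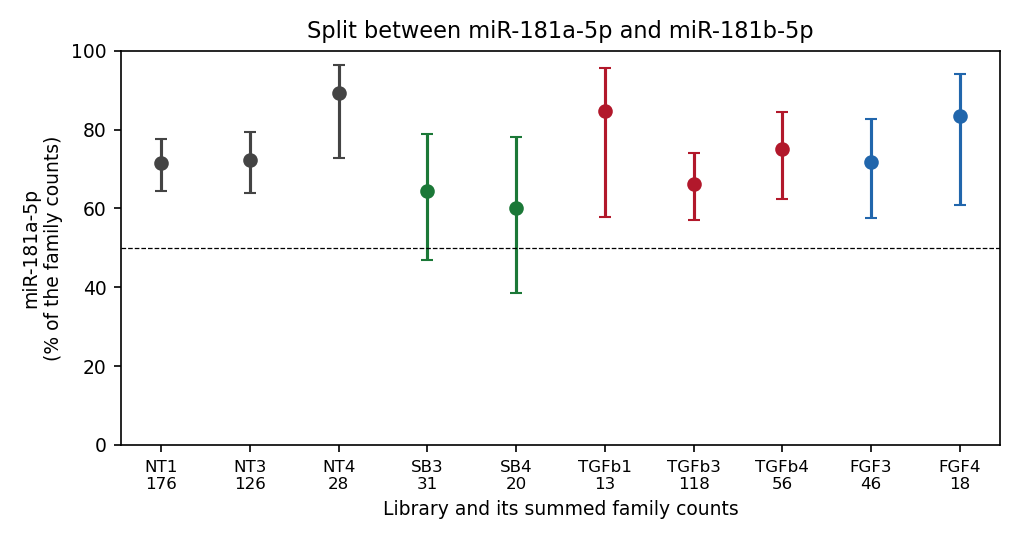
Part of the family's counts taken by miR-181a-5p (y axis, %) in the 10 libraries with at least 10 family counts (x axis, with the summed counts), with 95% Wilson intervals. All 10 points lie above the dashed line of equal parts, from 60.0% to 89.3%, and the intervals of both SB libraries reach below it.

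The opposite, 3p, arms tell the hairpins apart where the 5p arms cannot. The arms of miR-181a from the genes on chromosomes 9 and 1 are printed because they differ in 3 bases (C5U, U6C and C16U), 2 of them in the seed, which is in capitals.
miR-181a-2-3p: aCCACUGAccguugacuguacc
miR-181a-3p: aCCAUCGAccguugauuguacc
They stand in these hairpins, written 5′ to 3′ with both mature arms in capitals.
MIR181A2: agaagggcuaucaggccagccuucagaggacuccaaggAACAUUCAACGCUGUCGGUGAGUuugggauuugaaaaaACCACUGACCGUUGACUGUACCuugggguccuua
MIR181A1: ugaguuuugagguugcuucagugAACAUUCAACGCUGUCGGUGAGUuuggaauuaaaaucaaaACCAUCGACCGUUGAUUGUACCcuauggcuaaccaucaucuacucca
miR-181a-2-3p, from MIR181A2 on chromosome 9, had 101 counts, and miR-181a-3p, from MIR181A1 on chromosome 1, had 2. The chromosome 9 hairpin gave 98.1% of the 103 counts of both 3p arms (interval 93.2% to 99.5%). The 2 counts of miR-181a-3p were in NT replicate 1 and TGFb replicate 4. Stability and capture of the 2 arms were not measured, so this share is of 3p arms and not of the miR-181a-5p that each gene supplies. Of the other 3p arms, miR-181b-3p, miR-181b-2-3p and miR-181d-3p had no count.

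**Figure D4:**
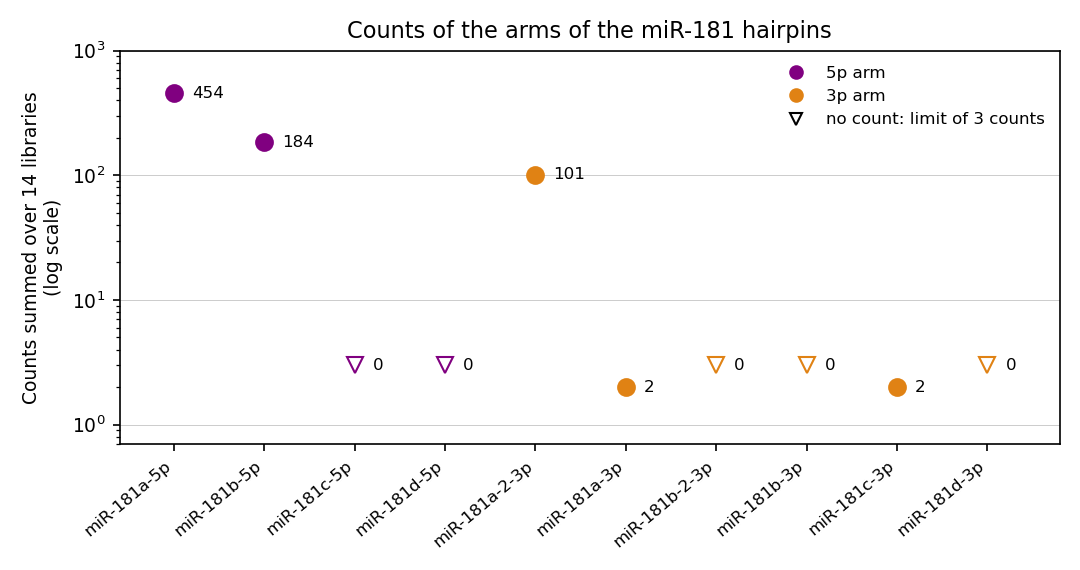
Counts summed over the 14 libraries (y axis, log scale) for the 4 members (5p arms) and the 6 opposite arms (3p) of their hairpins (x axis). Open triangles stand at the limit of 3 counts for arms with none; miR-181a-2-3p, with 101 counts, is the 1 opposite arm above that limit.

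By library, miR-181a-2-3p had 41, 15 and 5 counts in NT replicates 1, 3 and 4 and 1, 0, 11 and 20 counts in TGFb replicates 1 to 4. In SB it had 5 counts in replicate 3 and none in the other 3, and in FGF it had 0, 1 and 2 counts in replicates 2 to 4. Its mean share was 0.310% ± 0.171 in NT (SD, n = 3), 0.235% ± 0.330 in TGFb (n = 4), 0.0871% ± 0.125 in FGF (n = 3) and 0.0327% ± 0.0653 in SB (n = 4). The highest SB library held 0.131% and the lowest NT library 0.159%. The zeros of SB replicates 1, 2 and 4 allow up to 0.870%, 1.68% and 0.233%, all above that NT library. How many other miRNAs had such a gap in the raw shares was not counted, so no separation is read from it.

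Over the libraries of at least 500 counts the mean share of miR-181a-2-3p was 0.313% in TGFb (n = 3), 0.310% in NT (n = 3), 0.131% in FGF (n = 2) and 0.0653% in SB (n = 2), so the order of the first groups changed with the shallow libraries. With no filter the log2 fold change of miR-181a-2-3p was −2.39 for SB against NT (SE 1.23, edgeR adjusted p = 0.618), 2.24 for TGFb against SB (SE 1.20, adjusted p = 0.797) and −2.36 for FGF against NT (SE 1.40, adjusted p = 0.674), none of which passed. The 5p arm outnumbered it by 4.50 to 1 over all libraries. The ratio was 3.97 in NT, 4.13 in TGFb, 6.40 in SB and 16.0 in FGF, where it rests on 3 counts of the 3p arm.

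Replicate numbers recur across groups in the labels, which do not say what a number stands for. For miR-181a-5p, SB minus NT was −0.439 percentage points in number 3 and −1.54 in number 4. TGFb minus SB was 0.520 and 0.583 points, and FGF minus SB 0.495 and 0.795 points, in the same numbers. In number 1 SB had no count, which allows up to 0.870%, above both NT (0.848%) and TGFb (0.776%). In number 2 SB and FGF had no count, with limits of 1.68% and 2.61%, and TGFb had 1 count. SB was thus the lowest library in numbers 3 and 4, and in numbers 1 and 2 no direction against SB could be read at this depth. In number 3 the SB interval (0.339% to 0.806%) overlapped those of NT and FGF and lay under that of TGFb. In number 4 the SB interval (0.535% to 1.62%) overlapped those of TGFb and FGF and lay under that of NT.

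The replicate number moved with the level of miR-181a-5p as well. The library numbered 4 was the highest of its group in 4 of 4 groups, with shares of 0.933% to 2.48%. The libraries numbered 3 held 0.523% to 1.04%, those numbered 1 at most 0.848% and those numbered 2 at most 0.433%. For miR-181b-5p this was so in 0 of 4 groups. The part of whatever the numbers stand for in the group differences was not tested beyond the values within numbers and a fit with the number as a block, in which no member was called.

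**Figure D5:**
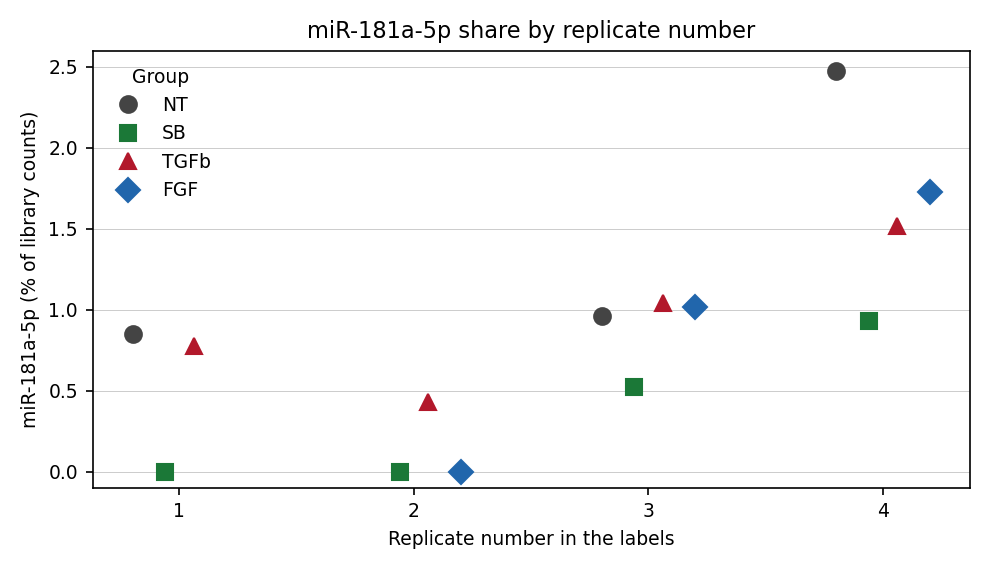
Share of miRNA counts taken by miR-181a-5p (y axis, %) by the replicate number in the labels (x axis), with 1 symbol per group. The SB square is the lowest point in numbers 3 and 4; the points at 0 in numbers 1 and 2 are shallow libraries whose limits are 0.870% or more. The libraries numbered 4 reach from 0.933% to 2.48%.

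Depth also moved with the values of miR-181a-5p. Across the 14 libraries its log2 CPM (counts scaled to a common total, with a prior count of 2) had a Pearson r of 0.721 with the log10 of the library total (Spearman rho 0.510), and its share had an r of 0.407. In the 10 libraries of at least 500 counts these were −0.304 and −0.527. The part of depth in the differences between groups was not tested beyond the fit of those 10 libraries, which gave −1.40 for SB against NT (SE 0.63, edgeR adjusted p = 0.643).

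The miRNAs whose log2 CPM was most like that of miR-181a-5p over the 14 libraries, among the 47 tested, were let-7e-5p (Pearson r 0.746), miR-221-3p (0.701), miR-183-5p (0.650), miR-125a-5p (0.640) and miR-1307-3p (0.621). Without SB replicate 2 and FGF replicate 2, 2 of the libraries farthest from the median, let-7e-5p was no longer first of these 5. Among the 5, miR-221-3p then had the highest r (0.757), followed by miR-183-5p (0.731) and miR-1307-3p (0.623), with miR-125a-5p at 0.440. The other tested miRNAs were not ranked again. SB replicate 1, also with no count of miR-181a-5p, was equally far from the median and was kept. miR-221-3p and miR-183-5p had no count there either. In the 10 libraries of at least 500 counts the r of the 5, in the order first given, was 0.485, 0.272, 0.364, 0.130 and 0.483. The libraries share depth and replicate number across these miRNAs, and the values are descriptions.

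Other miRNAs linked to TGF-beta signalling and epithelial-to-mesenchymal transition gave no call beside the family. Of 17 such miRNAs, all had counts, 3 passed the count filter (miR-21-5p, miR-143-3p and miR-205-5p) and 0 of 3 was called in any comparison, where 0 or 1 of the 47 tested (0% or 2.13%) was called. The summed share of the 17 was 9.19% to 15.7% in FGF and at most 6.93% in any other library. That FGF sum was mainly miR-21-5p, miR-143-3p and miR-199a-3p (mean shares of 5.88%, 2.25% and 1.51%) and not a rise of all 17. The miR-199a-3p share was uneven between the 3 FGF libraries (SD 1.76), and its highest value was in FGF replicate 2, a library of 115 counts. The mean share of miR-29a-3p was lowest in FGF (0.0974%), and miR-29b-3p, miR-29c-3p and miR-214-3p had no count there. miR-21-5p, whose processing TGF-beta is known to promote, had a log2 fold change of 1.31 in TGFb against NT (SE 0.81, edgeR adjusted p = 0.935) and 0.62 against SB (SE 0.75, adjusted p = 0.898). Its difference was larger in FGF against NT, at 2.42 (SE 0.86, unadjusted p = 0.00947, edgeR adjusted p = 0.148). Its mean share was 5.88% ± 0.589 in FGF (SD, n = 3), 2.16% ± 1.85 in TGFb (n = 4), 1.63% ± 0.934 in SB (n = 4) and 1.02% ± 1.44 in NT (n = 3). This order was unlike that of the mean shares of miR-181a-5p.

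For miR-143-3p, a smooth muscle miRNA, the log2 fold change was 1.00 in TGFb against NT (SE 1.25, edgeR adjusted p = 0.935) and −0.72 against SB (SE 1.17, adjusted p = 0.907). In FGF against NT it was 2.94 (SE 1.32, unadjusted p = 0.0340, edgeR adjusted p = 0.261), with shares of 1.84% to 2.61% in FGF and at most 0.891% in NT, 1.30% in TGFb and 1.68% in SB. miR-205-5p, an epithelial miRNA that holds back the mesenchymal regulators ZEB1 and ZEB2, gave −0.12 in TGFb against NT and −0.08 against SB (SE 1.85 and 1.70, edgeR adjusted p of 0.989 and 0.994), and 0.19 in FGF against NT (SE 2.01, adjusted p = 0.981). miR-205-5p had 50 counts over all libraries, and its differences lay well inside their SE.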

How the data were processed

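EV miRNA libraries (QIAseq miRNA kit, after PEG precipitation and miRNeasy Micro extraction, per the labels' protocols) were analysed from 2 tables. The authors' deposited raw table holds whole-number counts with no normalization; the submitters' processing notes name GRCh38, while the aligner and any use of molecular identifiers are not given in the sources used here. The authors' deposited adjusted table, read as a score, changed 1084 of 2001 nonzero values and 0 zeros, by a method not given. Its 14 CPM columns, 1 per library, and its group means were left out. Groups follow the labels.

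Counts were tested with edgeR 4.0.16 (R 4.3.3): filterByExpr on the groups (minimum count 10), TMM factors, robust glmQLFit, all 14 libraries in 1 fit of group means, Benjamini-Hochberg adjustment over the 47 miRNAs tested, and an adjusted p threshold of 0.05. SE is the log2 fold change over the square root of F. miR-181b-5p, which missed the filter, was fitted with no filter (447 miRNAs).

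The alternatives were RLE factors, library size only, DESeq2 1.42.0, no filter, a mean of at least 10 counts, the replicate block, limma 3.58.1 on log2 CPM (prior count 1) of the adjusted table, only the 2 groups compared, libraries of at least 500 counts, and each library left out. Library totals over all miRNAs were added after seeing the data. Depth was 115 to 14862 counts per library.

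The members and lists were chosen with earlier results of these data known. Named are the members, their opposite arms, miRNAs with the same seed, the 5 most like miR-181a-5p in pattern, its neighbours in mean share, and members of the TGF-beta list past the threshold or else its 3 most abundant. The called miRNAs and cell type markers are named outside that rule. The 18 replicate pairs within groups were compared by chi-square (largest p 0.000192, none identical).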

Additional observations from a re-analysis of the deposited data

Results flagged for a closer look

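In 2 cases an arm was counted in a single library of a group of 4, which made that library differ from 3 zeros. The share of miR-181a-2-3p was 0.131% in SB replicate 3 (5 of 3826 counts) with no count in the other 3 SB libraries, and the share of miR-181a-3p was 0.0361% in TGFb replicate 4 (1 of 2770 counts) with none in the other 3 TGFb libraries. The zeros allow up to 0.870%, 1.68% and 0.233% in SB replicates 1, 2 and 4 and 0.212%, 1.30% and 0.0401% in TGFb replicates 1 to 3. All of these limits exceed the 2 shares, so neither library is shown to stand apart. Of 9 sets of 4 libraries examined these were 2. The number set for chance, about 0.45, is no measure for them, since 3 zeros beside 1 nonzero library always meet the rule.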

How the results depend on the processing

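For miR-181a-5p, SB against NT kept its sign and missed the threshold in 24 of 24 alternatives (log2 fold change −3.16 to −1.11, adjusted p 0.197 to 0.643), as did TGFb against SB in 24 of 24 (1.00 to 2.64, adjusted p 0.190 to 0.871), FGF against NT in 24 of 24 (−2.06 to −0.17) and FGF against SB in 23 of 23 (0.58 to 1.61). TGFb against NT turned to 0.017 with the replicate block and 0.21 without NT replicate 4 (−0.58 to 0.21 with 1 library left out), and TGFb against FGF to −0.22 with library size only. The cause was not tested.

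miR-181b-5p changed sign in all 6 comparisons under some setting, with an adjusted p of at least 0.671 throughout. SB against NT became 0.38 with RLE factors, 0.46 with library size only, 0.37 with DESeq2 and 0.39 with a mean of at least 10 counts. FGF against NT became 0.076, 0.40, 0.023 and 0.092 under the same 4 settings. TGFb against SB became −0.064 with RLE factors, −0.19 with library size only, −0.044 with DESeq2 and −0.046 without TGFb replicate 3 (−0.046 to 0.79 with 1 library left out). TGFb against NT became −0.055 in the adjusted table, −0.081 with only the 2 groups, −0.13 without NT replicate 4 and −0.40 without TGFb replicate 3. FGF against SB became 0.84 in the adjusted table, 0.26 without FGF replicate 4, 0.010 without NT replicate 3, 0.019 without NT replicate 4, 0.025 without TGFb replicate 1, 0.028 without TGFb replicate 4, 0.011 without SB replicate 3 and 0.33 without SB replicate 4 (−0.44 to 0.33 with 1 library left out). TGFb against FGF became −0.13 with library size only. In the adjusted table its NT mean share was 0.377%, and the part of the family taken by miR-181a-5p was 59.2% in TGFb (67.7% to 76.1% in the raw table with 1 library left out) and 61.7% in FGF.

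The counts of called miRNAs over the whole table were unstable, and no setting added a member. Across the 4 groups (0 called) there were 2 with DESeq2, 1 with no filter, 4 with the replicate block, 4 in the adjusted table, 1 with totals over all miRNAs, and 0 to 4 with 1 library left out. SB against NT (1 called) had 0 with RLE factors, library size only, no filter, the adjusted table, a mean of at least 10 counts, only the 2 groups and libraries of at least 500 counts, 3 with DESeq2, 2 with totals over all miRNAs, and 0 to 9 with 1 library left out. FGF against NT (1 called) had 0 with library size only, RLE factors, a mean of at least 10 counts, only the 2 groups and libraries of at least 500 counts, 2 with the replicate block, 3 in the adjusted table, and 0 to 8 with 1 library left out. The highest of these leave-one-out counts (4, 9 and 8) came without NT replicate 4, and TGFb against NT (0 called) then had 1, within 0 to 1. With 1 library left out, SB against NT stayed at 1 without FGF replicate 3, FGF replicate 4 or NT replicate 3, and FGF against NT without TGFb replicate 2 or SB replicate 4. TGFb against SB (0 called) had 3 with the replicate block and 3 in the adjusted table. FGF against SB (0 called) had 1 with DESeq2, 1 with the replicate block, 1 in the adjusted table and 2 with only the 2 groups. TGFb against FGF (0 called) had 1, 2, 3 and 3 under those settings and 0 to 1 with 1 library left out (1 without NT replicate 4 or TGFb replicate 2).

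Same-numbered libraries of different groups had correlated deviations from their group means (mean r 0.307 over 18 pairs, 0.00574 to 0.628). In 15 of the 18 pairs r was over 0.1. Since 3 pairs were not, the numbers were not taken as pairing in the main fit. That fit has no term for the number, so variation shared by number stays in its spread. Of the 14 libraries, 9 correlated best with a library of their own number, and what unrelated numbers would give was not computed. With the replicate block, miR-181a-5p gave −1.56 for SB against NT (SE 0.69, edgeR adjusted p = 0.242) and 1.58 for TGFb against SB (SE 0.68, adjusted p = 0.190), and no member was called.

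At these depths 1 count is up to 0.870% of a library, so zeros in the 4 libraries under 500 counts bound little, and a mean share of miR-181a-5p without 1 library ran from 0.905% to 1.72% in NT and 0.174% to 0.485% in SB. miR-181c-5p and miR-181d-5p had no counts, so no alternative gave a value for them.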
